A study of Mus musculus with 2 samples.

Results

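Plasmacytoid dendritic cells (pDCs) made up 393 of the 12618 liver leukocytes with at least 200 detected genes, at least 500 unique molecular identifiers (UMIs, each standing for 1 captured mRNA molecule) and at most 10% mitochondrial UMIs, 242 of 6872 in the WT library and 151 of 5746 in the Vsig4 KO library. They were selected on raw UMI counts. A cell needed at least 2 UMIs of Siglech, at least 1 UMI over Ccr9, Cox6a2 and Klk1 together, and 0 UMIs of Cd3d, Cd3e, Cd3g and Cd79a. Those counts chose the cells, so the levels of these genes are given as a description and support nothing. Siglech encodes a sialic acid-binding surface receptor, Ccr9 a gut- and thymus-homing chemokine receptor, Cox6a2 a muscle-type subunit of cytochrome c oxidase and Klk1 a kallikrein protease.

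pDCs are the dendritic cells that look like plasma cells and can release large amounts of type I interferon after Toll-like receptors 7 and 9 meet nucleic acid in their endosomes. The transcription factor TCF4, with SPIB, RUNX2, BCL11A and high IRF8, holds their identity against that of conventional dendritic cells (cDCs), which depend on ID2 and ZBTB46. In tumours pDCs often make little interferon and have been described as tolerogenic, although they keep the machinery for both nucleic acid sensing and antigen presentation.

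Both libraries came from collagenase-digested liver rich in metastases of B16F10, a mouse melanoma line, with dead cells, doublets and CD45- cells gated out by flow sorting before 10x Genomics 5′ capture. The WT library came from WT mice and the other from mice without Vsig4 (labelled VSIG4 KO, written Vsig4-/- in the design), so every group here carried tumour and no tumour-free liver is part of the comparison. VSIG4 is an immunoglobulin-family receptor for complement fragments found on resident liver macrophages, and the series asks how it bears on T cells through CD5. The age, sex and strain of the mice and the number of animals behind each library are not given in the sources used here. Each genotype is therefore 1 library, no test between them exists, and every interval below is a 95% interval of counting error only.

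pDCs were among the deeper cells of each library, with a median of 5754 UMIs and 2266 genes per cell in WT and 7004 UMIs and 2534 genes in Vsig4 KO, against 3002 and 3260 UMIs in all other cells. Mitochondrial UMIs had a median of 1.47% in WT pDCs and 1.10% in Vsig4 KO pDCs. In all, 54 barcode sequences occurred in both libraries, and 1 WT and 2 Vsig4 KO pDCs carried such a barcode. No UMI of Vsig4 was seen in pDCs of either library, so that a share of up to 1.24% (WT) or 1.99% (Vsig4 KO) of pDCs with one is allowed by the counts, while all other cells held 43 UMIs in WT and 3 in Vsig4 KO.

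Summed over all selected cells, the pDC label fitted the marker genes that the selection did not use. It did not hold alike for every cell: 22 WT and 15 Vsig4 KO cells, described further on, had almost no Ly6d. Levels are UMIs summed over the cells of a group, per 1000000 UMIs of that sum (CPM). Tcf4, the master regulator of the lineage, stood at 2295 CPM in WT and 2009 CPM in Vsig4 KO pDCs, against 128 and 123 CPM in all other cells. Bst2, an interferon-inducible surface antigen of pDCs, stood at 3561 and 3539 CPM against 205 and 174 CPM. Irf8 was at 2323 and 2256 CPM in pDCs and at 1265 and 1103 CPM in cells gated as cDC1, the dendritic subset that shares this factor. Ly6d, a small surface protein of lymphoid and pDC precursors, was at 3651 and 3879 CPM in pDCs and at 1866 and 1861 CPM in gated B cells, so it set pDCs apart from the cDC gates, all at most 23.3 CPM, more than from B cells. Spib showed the same sharing, with 250.4 and 244.5 CPM in pDCs and 194 and 219 CPM in B cells.

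**Figure D1:**
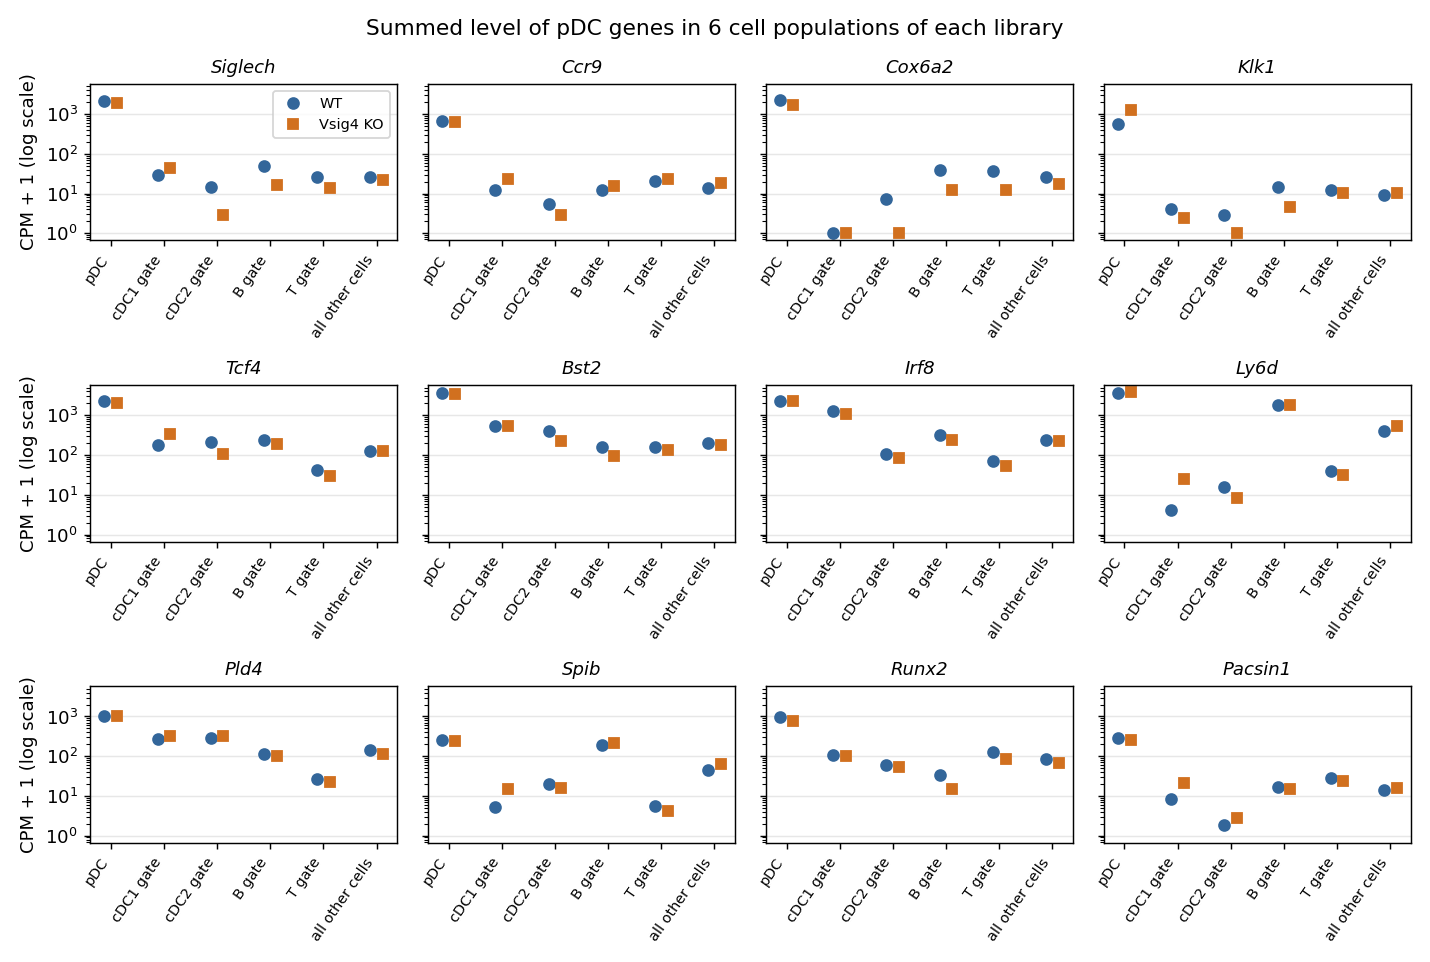
Summed level (CPM plus 1, log scale) of 12 pDC genes in pDCs, in 4 gated cell populations and in all other cells of the WT library (circles) and the Vsig4 KO library (squares). All 12 genes are highest in pDCs of both libraries, but Siglech, Ccr9, Cox6a2 and Klk1 chose the cells, so their levels support nothing. Ly6d and Spib are shared with the B cell gate and Irf8 with the cDC1 gate.

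The 4 selecting genes varied in how evenly pDCs carried them. Siglech had a median of 12 UMIs per WT cell and 13 per Vsig4 KO cell, with a range of 2 to 35 and 2 to 38. Ccr9 was found in 89.3% and 90.1% of pDCs and Cox6a2 in 95.5% and 85.4%. Klk1 was the uneven one: 52.9% of WT and 76.2% of Vsig4 KO pDCs had a UMI. At the edge of the rule, 6 WT and 8 Vsig4 KO pDCs held exactly 2 Siglech UMIs, and 11 and 7 cells were left out with 1. Just inside the second condition were 7 and 5 cells with a sum of 1. Tcf4 was at 1311 and 1515 CPM in them, Spib at 100.9 and 154.1 CPM and Ly6d only at 168.1 and 385.2 CPM. Their Irf8 was at 1547 and 205.5 CPM, beside 2323 and 2256 CPM in all pDCs. Just outside the second condition were 20 and 21 cells with Siglech but 0 UMIs of Ccr9, Cox6a2 and Klk1. In those, Tcf4 was at 1355 and 1547 CPM but Ly6d only at 142 and 108 CPM and Spib at 14.98 and 37.9 CPM. Low Ly6d was thus found on both sides of this edge. A further 39 WT and 31 Vsig4 KO cells that met the other conditions were left out for a Cd3 or Cd79a UMI.

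pDCs held 3.52% (Clopper-Pearson 3.10 to 3.99) of the WT cells and 2.63% (2.23 to 3.08) of the Vsig4 KO cells. The ratio of Vsig4 KO over WT was 0.746 (0.605 to 0.918). The cDC1 gate had a ratio of 0.735 (0.522 to 1.03) and the cDC2 gate of 0.511 (0.367 to 0.704), beside gated B cells at 1.33 (1.23 to 1.44) and gated T cells at 1.23 (1.15 to 1.32). A share depends on every other cell type in the sort, so fewer pDCs and more lymphocytes cannot be told apart here. UMIs of cell cycle genes were rare: 7 cells in each library held a UMI of Mki67 or Top2a.

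Between the libraries, 6080 genes were measured in pDCs, meaning at least 50 UMIs in the 2 sums together, from 1457844 WT and 1042941 Vsig4 KO UMIs. Of these, 4.85% were at least 1.5-fold higher in Vsig4 KO pDCs (295 genes) and 4.67% at least 1.5-fold lower (284 genes). The median of all measured genes on the scale log2 (Vsig4 KO CPM + 1) minus log2 (WT CPM + 1) was 0.01. A gene is called higher or lower below only past that 1.5-fold line, and counts of list genes are to be read against these shares. Ratios and medians in all other cells come from a mixture of cell types. Its make-up differed between the libraries, with share ratios from 0.511 for gated cDC2 to 1.33 for gated B cells. A change in that mixture and a change of level within its cells cannot be told apart in these values.

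The 26 genes of the pDC identity list that the selection did not use together made up 23510.1 CPM in WT and 23694.5 CPM in Vsig4 KO pDCs, a ratio of 1.01 (0.992 to 1.02), beside 2292 and 2356 CPM in all other cells. All 26 were measured, 0 passed the 1.5-fold line in either direction and the median was 0.03. With the 4 selecting genes the list had 1 gene past the line and a median of 0.01. Among the 26, Bst2 had a ratio of 0.994 (0.953 to 1.04), Irf8 of 0.971 (0.921 to 1.02), Pld4, an endolysosomal exonuclease, of 1.02 (0.942 to 1.10) and Ly6d of 1.06 (1.02 to 1.11). Tcf4 was at 0.875 (0.828 to 0.925) and Runx2, a regulator of pDC egress and homing receptors, at 0.8002 (0.733 to 0.873), both short of the 1.5-fold line.

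The identity list gene past the line was Klk1, one of the selecting genes. The gene lies at chr7:44225360-44229618 on the plus strand (mm10, GENCODE M21). It had 827 UMIs in 128 WT cells and 1289 UMIs in 115 Vsig4 KO cells, with a median of 1 and 4 UMIs and a highest cell of 55 and 95. That gave 567 and 1236 CPM, a ratio of 2.18 (1.99 to 2.38). In all other cells Klk1 was at 8.07 and 9.49 CPM, a ratio of 1.18. Dropping Klk1 from the second condition removed 0 WT and 3 Vsig4 KO cells and left the ratio at 2.196. After each cell was thinned to 1000 UMIs, a Klk1 UMI was found in 28.2% (22.6 to 34.4) of the pDCs in WT and in 50% (41.7 to 58.3) in Vsig4 KO, against 0.400% and 0.143% of gated B cells, at median depths of 2564 and 2955 UMIs.

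**Figure D2:**
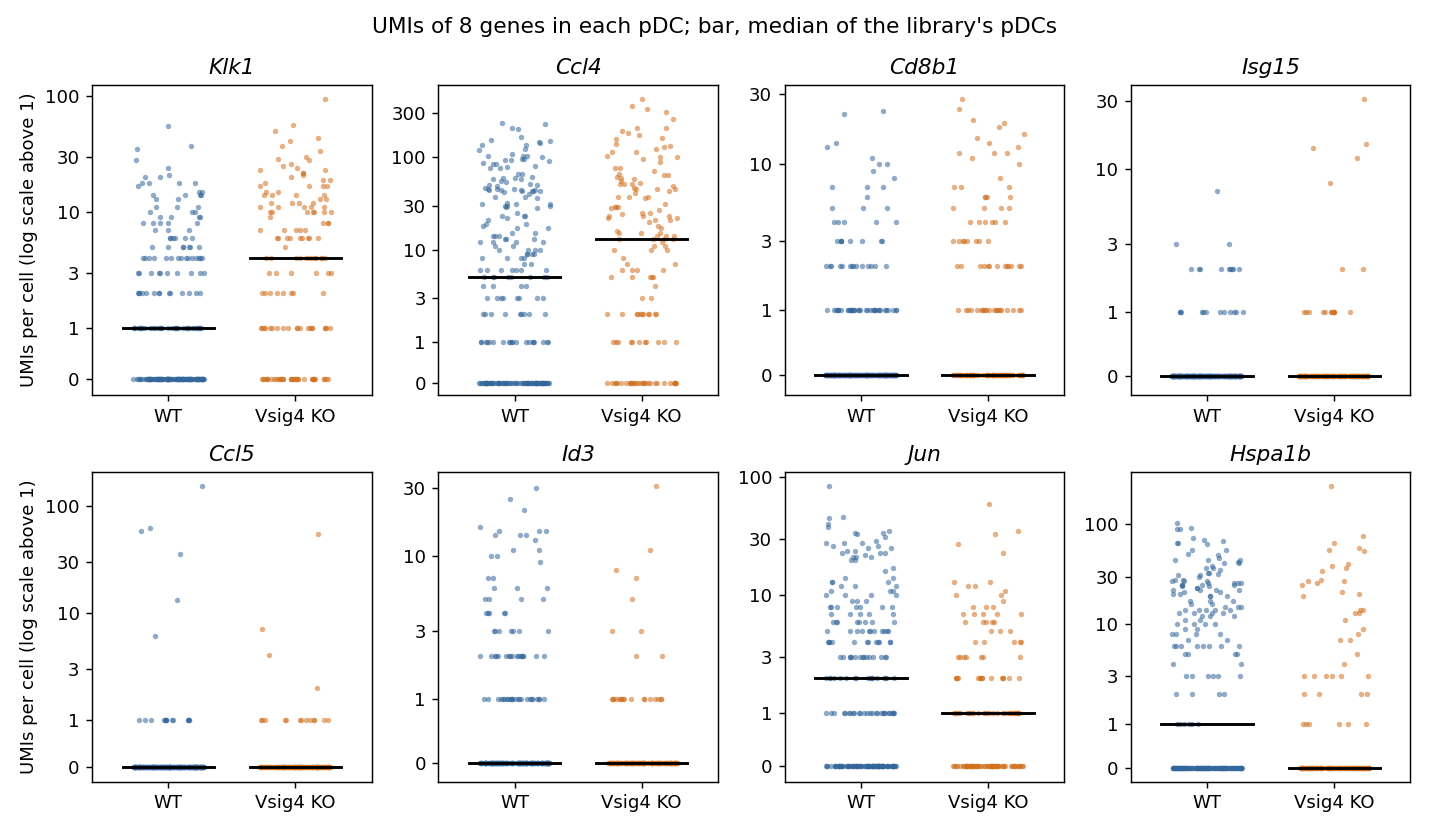
UMIs of 8 genes in each of the 242 WT and 151 Vsig4 KO pDCs (log scale above 1), with the median of each library as a bar. Klk1 and Ccl4 are spread over most cells, whereas the highest values of Isg15 and Ccl5 lie in a few cells, and Id3, Jun and Hspa1b reach many UMIs in more WT than Vsig4 KO cells.

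Among regulators of dendritic fate, 24 of 27 listed transcription factors were measured, 2 were higher and 1 was lower, with a median of -0.03. The lower one was Id3, an inhibitor of E proteins such as TCF4 (chr4:136143497-136145755, plus strand). It had 394 UMIs in 78 WT cells and 89 UMIs in 26 Vsig4 KO cells, or 270.3 and 85.3 CPM, a ratio of 0.316 (0.248 to 0.398). The highest single cell held 30 UMIs in WT and 31 in Vsig4 KO, and 32.2% and 17.2% of pDCs held a UMI. Without the 3 cells with the most Id3 UMIs in each library the ratio was 0.171, and in all other cells it was 0.782. Bcl11a (0.935), Spib (0.977), Ikzf1 (0.850) and Irf8 stayed within 1.5-fold. Zfp36l2, which encodes an mRNA decay factor, was at 1.46 in pDCs and at 1.47 in all other cells. The higher factors were Irf7 (1.63, 1.28 to 2.07) and Klf4 (1.503, 0.954 to 2.37), and the latter came from few cells, with a ratio of 0.880 without its 3 highest cells in each library.

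The route from endosomal nucleic acid to IRF7 was present in pDCs of both libraries. In all, 25 of 26 listed genes were measured, 4 were higher and 0 lower, with a median of 0.12 in pDCs and -0.14 in all other cells. Tlr9, the receptor for CpG DNA, had 57 UMIs in 49 WT and 68 UMIs in 47 Vsig4 KO cells, a ratio of 1.67 (1.16 to 2.41). Irak1, the kinase downstream of MYD88, had 50 and 75 UMIs (2.10, 1.45 to 3.06), with 1.06 in all other cells. Irf7, the factor that switches on interferon-alpha genes, was found in 36.8% of WT and 47.7% of Vsig4 KO pDCs. Rnaset2a, a lysosomal RNase that prepares RNA ligands, was at 1.59 (1.15 to 2.20) and at 1.47 in all other cells. Tlr7, the receptor for single-stranded RNA, was at 146 and 134 CPM (0.919, 0.737 to 1.14), and Unc93b1, the chaperone that carries both receptors to endosomes, was at 820 and 881 CPM (1.08, 0.985 to 1.17).

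Interferon itself was not detected beyond a single molecule. Of 20 type I and III interferon genes, 1 UMI, of Ifnk, was found in 242 WT pDCs, and 0 in 151 Vsig4 KO pDCs, which allows up to 1.99% of the latter to hold one. All other cells held 59 UMIs of these genes in WT and 99 in Vsig4 KO. The receptor genes Ifnar1 and Ifnar2 were at 160.5 and 475 CPM in WT and at 192 and 497 CPM in Vsig4 KO pDCs (1.195, 0.984 to 1.45, and 1.05, 0.931 to 1.17).

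Part of the genes of the type I interferon response were higher in Vsig4 KO pDCs. Of 53 listed symbols, 51 were matched and 27 measured. Of these, 8 were at least 1.5-fold higher (beside 4.85% of all measured genes), 0 were at least 1.5-fold lower, and 22 had a ratio above 1. The median was 0.24 in pDCs and -0.11 for the same genes in all other cells. The higher genes were Isg15, a ubiquitin-like modifier, its protease Usp18, Irf7, Ifitm3, which blocks viral entry (0.478 without the cells low in Ly6d described further on), Phf11b, Lgals3bp, Slfn5 and Eif2ak2, the kinase sensing double-stranded RNA. Bst2 (0.994), Trim25 (1.12), Trim30a (1.03) and Ifi27l2a (1.17) did not pass the line.

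Isg15 showed how few cells carried part of this difference. It had 43 UMIs in 24 WT cells, with at most 7 in a cell, and 96 UMIs in 19 Vsig4 KO cells, with up to 31 in a cell. The ratio was 3.12 (2.16 to 4.58), 0.943 in all other cells, and 1.68 without the 3 highest cells in each library. Of the 96 Vsig4 KO UMIs, 80 lay in 5 cells with at least 8 each, a level that 0 WT cells reached. In these 5 cells the rest of the response list, without Isg15 and Bst2, had a median of 11216.7 CPM per cell, against a median of 2084 CPM over all Vsig4 KO pDCs and 2176 CPM over all WT pDCs. The highest single cell of the list held 14414.4 CPM in WT and 17638.1 CPM in Vsig4 KO, so cells with a high summed level were present in both. Slfn5, a Schlafen family member, had 28 UMIs in 21 WT and 63 UMIs in 21 Vsig4 KO cells (3.15, 1.99 to 5.10), and Phf11b had 41 and 68 UMIs in 34 and 35 cells (2.32, 1.55 to 3.50). Irf7 (all other cells 0.872) and Lgals3bp (1.70, 1.19 to 2.42) were spread over more cells, 89 and 72 cells for Irf7 and 48 and 54 for Lgals3bp, with at most 12 UMIs in a cell. Usp18 was at 1.76 (1.07 to 2.92) and at 1.14 without its 3 highest cells in each library, and Eif2ak2 at 1.56 (0.886 to 2.76). The counting interval of Eif2ak2 includes 1. The listed genes that were not measured were too sparse for a ratio. Ifit2, for example, had 13 UMIs in 13 WT cells and 22 UMIs in 5 Vsig4 KO cells, 13 of them in 1 cell.

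The promoters of these genes were searched for the interferon-stimulated response element, a site bound by complexes of STAT2 and IRF9 and by IRF7, as GAAANNGAAA on either strand from 250 bases before to 50 bases after the RefSeq start (GRCm38.p6). It matched 3.99% of 27025 promoters and 55% of the 40 list genes with one. Among measured list genes it matched 5 of 7 that were higher and 5 of 14 that were not, so genes with a match were on both sides of the line. The windows below, on the gene's strand with the matched bases in capitals, show 3 higher genes and 3 others.
Isg15 (chr4:156200866-156200905, minus strand, ratio 3.12, first matched base 72 before the start): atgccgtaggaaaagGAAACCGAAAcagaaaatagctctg
Slfn5 (chr11:82951932-82951971, plus strand, ratio 3.15, 155 before the start): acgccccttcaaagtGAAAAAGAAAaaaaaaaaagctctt
Phf11b (chr14:59341356-59341395, minus strand, ratio 2.32, 50 before the start): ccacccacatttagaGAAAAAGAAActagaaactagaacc
Bst2 (chr8:71537572-71537611, minus strand, ratio 0.994, 124 before the start): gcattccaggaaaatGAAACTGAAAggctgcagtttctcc
Ifi203 (chr1:173942503-173942542, minus strand, ratio 1.08, 35 before the start): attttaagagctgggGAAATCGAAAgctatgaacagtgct
Stat2 (chr10:128270261-128270300, plus strand, ratio 1.24, 222 before the start, matched on the opposite strand): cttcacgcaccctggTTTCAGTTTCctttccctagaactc
Isg15 holds 3 overlapping matches and Bst2 2, of which 1 each is shown. A match describes letters and shows no binding.

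The interferon-gamma response list (11 of 26 genes measured) had 0 genes past the line in either direction and a median of 0.21, with Irf1 at 1.16 (1.002 to 1.34) and Ifi47, an immunity-related GTPase, at 1.49 (1.11 to 2.001).

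Genes for antigen presentation were mostly above 1 in pDCs. For MHC class II, 9 of 10 measured genes had a ratio above 1, 1 was past the line in each direction, and the median was 0.24 beside -0.19 in all other cells. H2-Aa, the alpha chain of I-A, had a median of 7 UMIs per WT cell and 12 per Vsig4 KO cell, or 1737 and 2248 CPM (1.29, 1.22 to 1.37). Cd74, the invariant chain, was at 5894 and 7287 CPM (1.24, 1.199 to 1.275). H2-DMb1, a subunit of the peptide editor, was the higher gene (1.52, 1.24 to 1.87), and Marchf1, a ubiquitin ligase that removes class II from the surface, the lower one (0.609, 0.372 to 0.971, on 62 and 27 UMIs). With cells holding Cd3 or Cd79a UMIs kept in, the class II median was 0.12. For MHC class I, 20 of 22 measured genes were above 1 and 2 were past the line, H2-Q4 (1.55) and H2-T22 (1.52). H2-K1 was at 1505 and 2010 CPM (1.34, 1.26 to 1.42), while B2m was at 2189 and 2163 CPM (0.988, 0.936 to 1.04).

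Cytokines and T cell ligands were sparse. In all, 14 of 33 listed genes were measured, 3 were higher and 1 was lower. Tnf, the inflammatory cytokine, had 23 UMIs in 16 WT and 50 UMIs in 20 Vsig4 KO cells (3.04, 1.82 to 5.22). Tnfsf9, the ligand of 4-1BB, had 21 UMIs in 8 and 58 UMIs in 17 cells (3.86, 2.31 to 6.70), and Il12a, the p35 chain of IL-12, had 48 and 59 UMIs (1.72, 1.15 to 2.57). Il1b was lower at 126 and 24 UMIs (0.266, 0.165 to 0.414), but 113 of the WT UMIs lay in 2 cells. Tgfb1 was at 324 and 380 CPM (1.17, 1.02 to 1.34) and Lgals1 at 2312 and 2139 CPM.

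Ccl4, an inflammatory CC chemokine, was the chemokine gene with the most UMIs in pDCs (chr11:83662584-83664683, plus strand). Of 20 measured chemokine, receptor and adhesion genes 0 were higher, 1 was lower and the median was -0.02, with the highest ratio at Itgb2 (1.47), the shared chain of leukocyte integrins. Ccl4 had 6143 UMIs in 164 WT cells and 6343 UMIs in 121 Vsig4 KO cells, with medians of 5 and 13 UMIs and highest cells of 237 and 429. The summed levels were 4214 and 6082 CPM, a ratio of 1.44 (1.39 to 1.495), short of the 1.5-fold line, and 1379 and 1382 CPM in all other cells. The Ccl4 ratio was 1.22 without the highest doublet scores and 1.52, past the line, in pDCs with at least 2 Ly6d UMIs. Ccl3, its neighbour in the chemokine cluster, was at 311 and 314 CPM (1.01, 0.873 to 1.17). Ccl5 was lower (0.328, 0.254 to 0.420), with 321 of its 341 WT UMIs in 5 cells and 54 of its 80 Vsig4 KO UMIs in 1. Those 5 WT cells had a median total of 10691.0 UMIs.

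Genes used to divide pDCs into subsets mostly stayed within 1.5-fold. Of 18 measured, 1 was higher and 1, Nkg7, lower, beside 4.85% and 4.67% of all measured genes, and the median was -0.01. That median depended on the processing and ranged from -0.317 to 0.106 over the alternatives. Nkg7, a granule protein of NK and T cells, had 45 of its 71 WT UMIs in 2 cells and a ratio of 1.01 without pDCs that held UMIs of other lineages. Cd8a, the alpha chain of the CD8 coreceptor that some mouse pDCs carry, had 105 UMIs in 44 WT and 188 UMIs in 47 Vsig4 KO pDCs (2.50, 1.96 to 3.21), and Cd8b1 had 269 UMIs in 78 and 392 UMIs in 74 cells (2.04, 1.74 to 2.39). In all other cells the ratios were 1.05 and 1.24. After thinning to 1000 UMIs, Cd8b1 was found in 11.6% (7.86 to 16.35) of the pDCs in WT and in 23.65% (17.1 to 31.3) in Vsig4 KO, against 0.0799% and 0.143% of gated B cells, while 18.01% and 17.4% of gated T cells held it. Before thinning the pDC shares were 32.2% and 49.0%. Cd4, the coreceptor found on mouse pDCs, was at 216 and 313 CPM (1.45). Dntt, the template-free polymerase of lymphoid-derived pDCs, was at 244 and 178 CPM (0.732). Pgam2, the muscle form of phosphoglycerate mutase, had 74 UMIs in 31 and 153 UMIs in 47 cells (2.89, 2.18 to 3.87) with 0.675 in all other cells, and Cdh5, the adhesion gene better known from endothelium, was at 104 and 172 CPM (1.66, 1.33 to 2.07) beside 1.998 and 2.705 CPM in all other cells.

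A small group of pDCs with almost no Ly6d stood out within both libraries. This split was chosen after the values were seen and is given with no test. In WT, 22 cells (9.09% of pDCs) and in Vsig4 KO 15 cells (9.93%) held 0 or 1 Ly6d UMI, while 4 and 1 cells held 2 and the medians over all pDCs were 18 and 21. Their median depth was 6048 and 8730 UMIs, beside 5746 and 6933 UMIs in the other pDCs, and 2 and 0 of them were among the highest doublet scores. At least 2 UMIs of other lineages were found in 9 of the 22 WT and 3 of the 15 Vsig4 KO cells, beside 36 of 220 and 31 of 136 of the other pDCs, and their part in the levels below was not tested. Tcf4 was at 1876 and 2087 CPM in these cells and at 2336 and 1998 CPM in the other pDCs. Of the selecting genes, given as a description, Siglech was at 0.613 and 0.354 of the level of the other pDCs of the library, Cox6a2 at 0.309 and 0.0338 and Klk1 at 0.346 and 0.0346. Mzb1, a chaperone of the secretory pathway, was at 54.0 and 0 CPM against 272 and 238 CPM.

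The same cells held more of several genes, part of them known from myeloid and conventional dendritic cells. The genes named here were picked after the split was seen. Cd209d and Ly6c2 are on the pDC identity list, Ly6c2 is also on the monocyte marker list, and Ifitm1 and Crip1 are on the list of pDC subset genes. Whether these cells are pDCs or another cell type was not tested. Ifitm1, an interferon-inducible membrane protein, had 22 of its 23 WT UMIs in 4 such cells and 17 of its 18 Vsig4 KO UMIs in 5. Fcgrt, the neonatal Fc receptor, was at 425 and 540 CPM in them against 27.1 and 20.7 CPM, and Lgals3, galectin 3, at 911 and 1007 CPM against 121 and 75.1 CPM. Vim, Crip1, Cst3, Cd300a, Plbd1, Klf4 and the lectin gene Cd209d were also higher in them in both libraries, with ratios between 2.16 for Cst3 in WT and 31.8 for Plbd1 in Vsig4 KO. Ly6c2 was at 3890 and 3746 CPM against 2241 and 2645 CPM.

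These cells bore on several differences between the genotypes. Wfdc17, a secreted myeloid protein, had a ratio of 3.95 (2.64 to 6.02) over all pDCs, Plbd1, a phospholipase B-like protein, 2.56 (1.84 to 3.58) and Ifitm3 1.92 (1.56 to 2.37). In the 15 Vsig4 KO cells with little Ly6d they had 85, 86 and 172 UMIs, each found in 11 of them, against 12, 28 and 22 UMIs in the 22 WT cells. With these cells left out the ratios were 0.723, 0.964 and 0.478, on the other side of 1. Without cells that held UMIs of other lineages they were 7.94, 4.45 and 4.92. Klf4 and Atf3, at 1.503 and 1.69 over all pDCs, also changed side without the cells low in Ly6d, to 0.765 and 0.506. Isg15 (3.61), Slfn5 (3.94), Klk1 (2.32), Cd8a (2.38) and Id3 (0.204) kept their direction there.

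**Figure D3:**
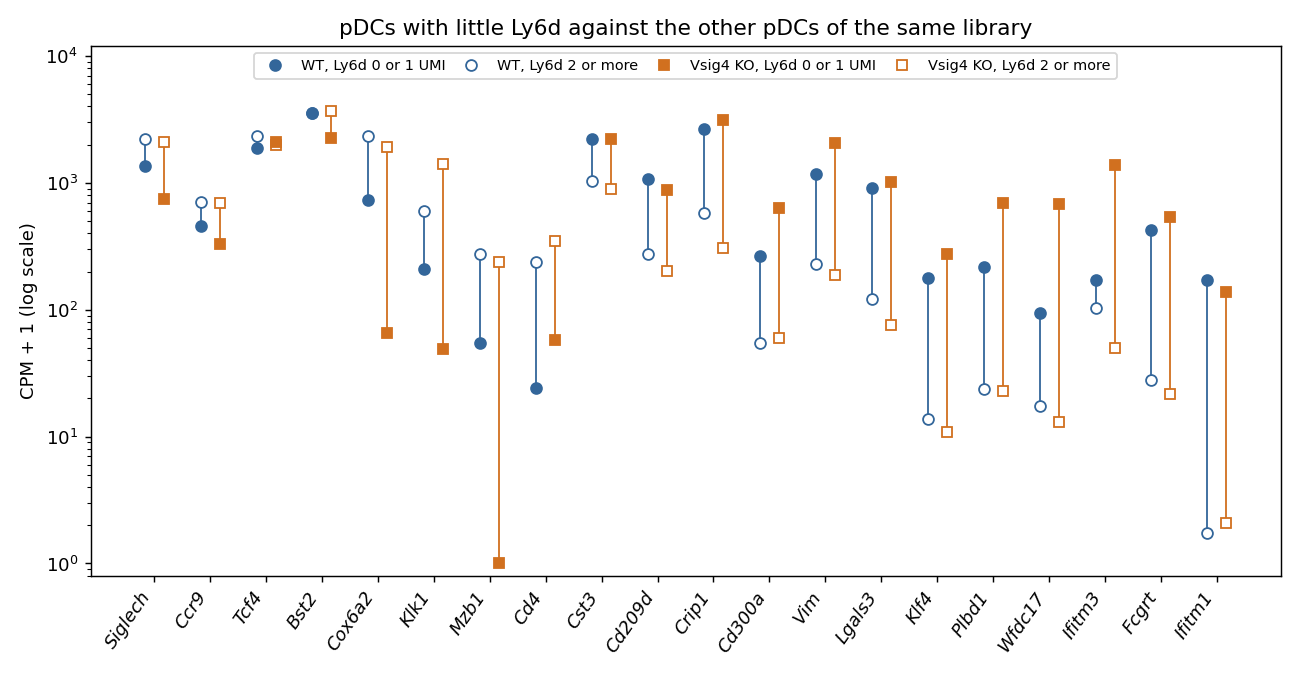
Level (CPM plus 1, log scale) of 20 genes in pDCs with 0 or 1 Ly6d UMI (filled; 22 WT and 15 Vsig4 KO cells) and in the other pDCs (open) of the WT library (circles) and the Vsig4 KO library (squares). The levels of Tcf4 lie close together, Cox6a2, Klk1, Mzb1 and Cd4 are lower and the genes from Cst3 to Ifitm1 are higher in the cells with little Ly6d.

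Early response genes lay on both sides of the line, and 9 of 13 measured heat-shock genes had a ratio below 1. Of 24 measured AP-1 and early response genes, 4 were higher and 5 lower, 16 had a ratio above 1 and the median was 0.08. That median was -0.30 without the cells low in Ly6d. The higher genes were Rgs1, a regulator of G protein signalling, Atf3 (1.69), Ier3 (1.66) and Klf4 (1.503), of which the last 3 were below 1 without the cells low in Ly6d, with Ier3 at 0.723. Jun had 1462 UMIs in 151 WT cells and 474 UMIs in 87 Vsig4 KO cells (0.453, 0.408 to 0.503), beside 0.702 in all other cells. Jund (0.607, 0.556 to 0.662) was at 1.01 in all other cells, Rgs2 at 0.451 and 0.854, Fosb at 0.574 and 0.929, and Dusp2 at 0.628 and 1.75. Rgs1 was at 1.77 in pDCs and at 1.36 in all other cells. Of the 13 heat-shock genes, 1 was higher and 4 lower, with a median of -0.31 in pDCs and -0.04 in all other cells. Hspa1b, an inducible HSP70 gene, had 2814 UMIs in 123 WT cells and 1033 UMIs in 45 Vsig4 KO cells (0.513, 0.477 to 0.551). It was at 0.642 in all other cells, and after thinning it was found in 43.2% and 20.3% of pDCs, 46.3% and 30.2% of B cells and 41.1% and 30.8% of T cells. Hsp90aa1 (0.560) and Hsph1 (0.581) were lower with ratios of 0.808 and 0.903 in all other cells.

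Few metabolic and secretory genes passed the line. Of 64 oxidative phosphorylation genes all were measured, 0 passed the line and 46 were below 1, with a median of -0.10 in pDCs and -0.18 in all other cells. Of 19 measured glycolysis genes, 15 were above 1 and only Pfkl, the liver-type phosphofructokinase, passed the line (1.78, 1.197 to 2.65), with a median of 0.20 beside -0.11 in all other cells. All but 1 of the 44 endoplasmic reticulum and secretion genes were measured, 0 passed and the median was -0.03, with Sec61b, a translocon subunit, at 0.783 and Hsp90b1 at 1.08. The inhibitory and ITAM receptor list had 1 of 19 past the line, Cd300a (1.77), which stood at 1.10 without the cells low in Ly6d. Lair1, a collagen receptor, was at 770.3 and 869 CPM (1.13) and Klra17 at 244 and 261 CPM (1.07). Among 22 cytokine receptor genes Il2rg passed (1.71 in pDCs, 1.49 in all other cells), and Flt3, the receptor for the growth factor of dendritic cells, was at 1.16. Of 27 measured lysosomal genes 3 were higher, among them the membrane protein gene Lamp2 (1.57), and 2 lower, Ctse and Ctsw (0.660, 0.348 to 1.21, and 0.996 without the highest doublet scores), with a median of 0.09 beside -0.32 in all other cells. The genes that pDCs share with B cells had 0 of 12 past the line and a median of -0.14, and the proliferation list 0 of 6 and a median of -0.15. The NF-kB list had a median of 0.22 over 22 genes with only Tnf past the line, and that median was 0.08 with cells holding Cd3 or Cd79a UMIs kept in.

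**Figure D4:**
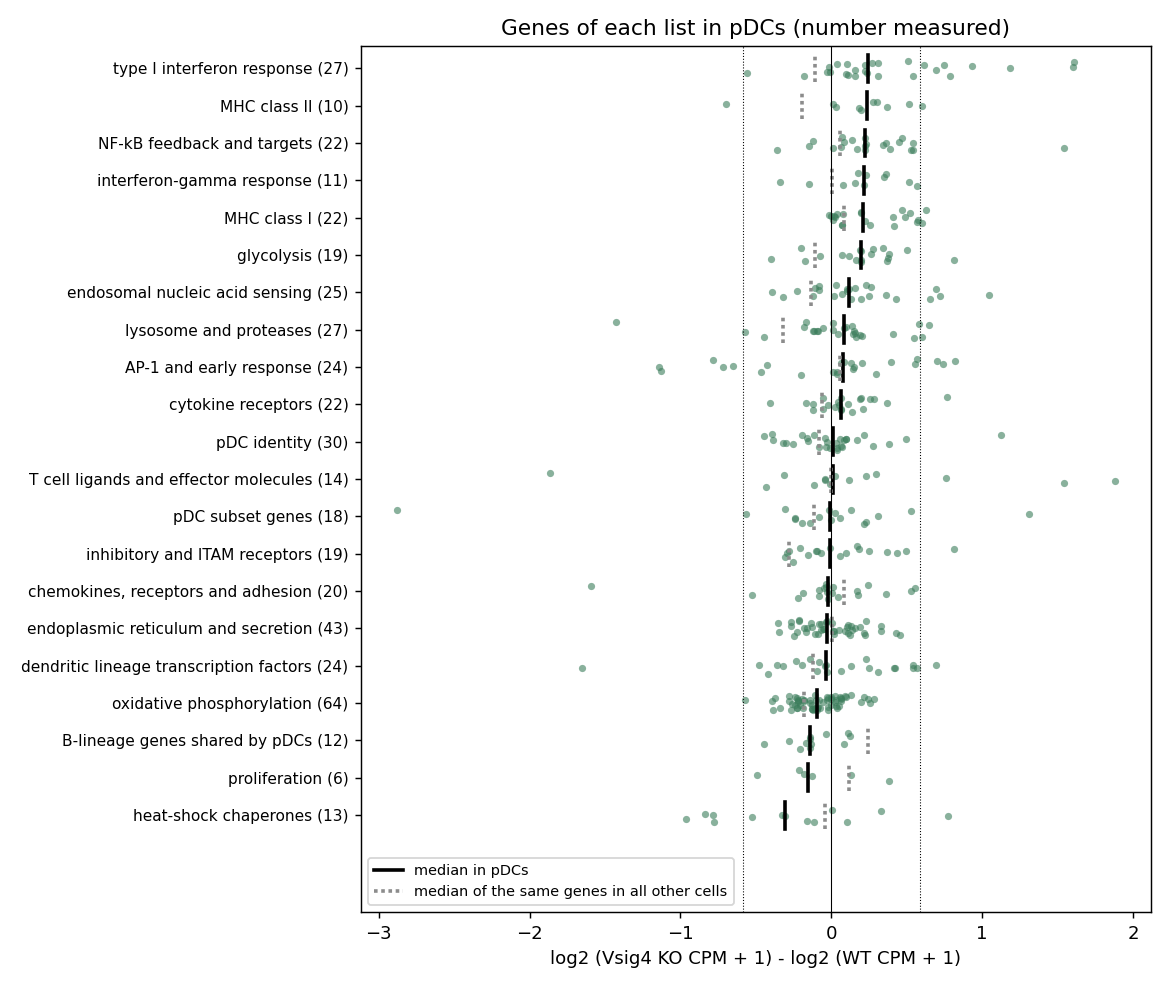
Difference between Vsig4 KO and WT pDCs on the log2 (CPM + 1) scale for each measured gene of 21 lists (points), with the list median in pDCs (black bar) and in all other cells (grey dotted bar); thin dotted lines mark 1.5-fold. The interferon response and MHC class II medians lie at 0.24 in pDCs and below 0 in all other cells, and the heat-shock median at -0.31. All other cells are a mixture of cell types whose make-up differed between the libraries.

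Among the 12 genes with the highest and the 12 with the lowest ratios of 3893 that could be ranked, a part also differed outside pDCs. Ppfia4, a liprin scaffold gene, had 27 UMIs in WT and 252 in Vsig4 KO pDCs (13.05, 8.76 to 20.2) and a ratio of 17.8 in all other cells. Camk2b (2.81 and 3.52), the unnamed locus Gm42031 (3.62 and 3.04), D130009I18Rik (2.75 and 2.22) and the histone gene H1f4 (2.37 and 1.96) were past the 1.5-fold line in both sets of cells, as were Gm47283 (0.0939 and 0.0805) and Ctse, an endosomal protease (0.369 and 0.428), in the other direction. Apoe, an apolipoprotein gene of the macrophage marker list, was at 0.373 (0.255 to 0.535) in pDCs and at 0.5503 in all other cells, but at 0.867 in pDCs when each cell was weighted equally. Rgs18, a regulator of G protein signalling, was at 2.26 (1.598 to 3.23) in pDCs and 1.16 elsewhere. Dedd2 was at 0.484 (0.300 to 0.758) in pDCs and 1.01 in all other cells, and Trim36 at 0.462 (0.321 to 0.655) and 0.826. The difference between pDCs and other cells was not tested.

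**Figure D5:**
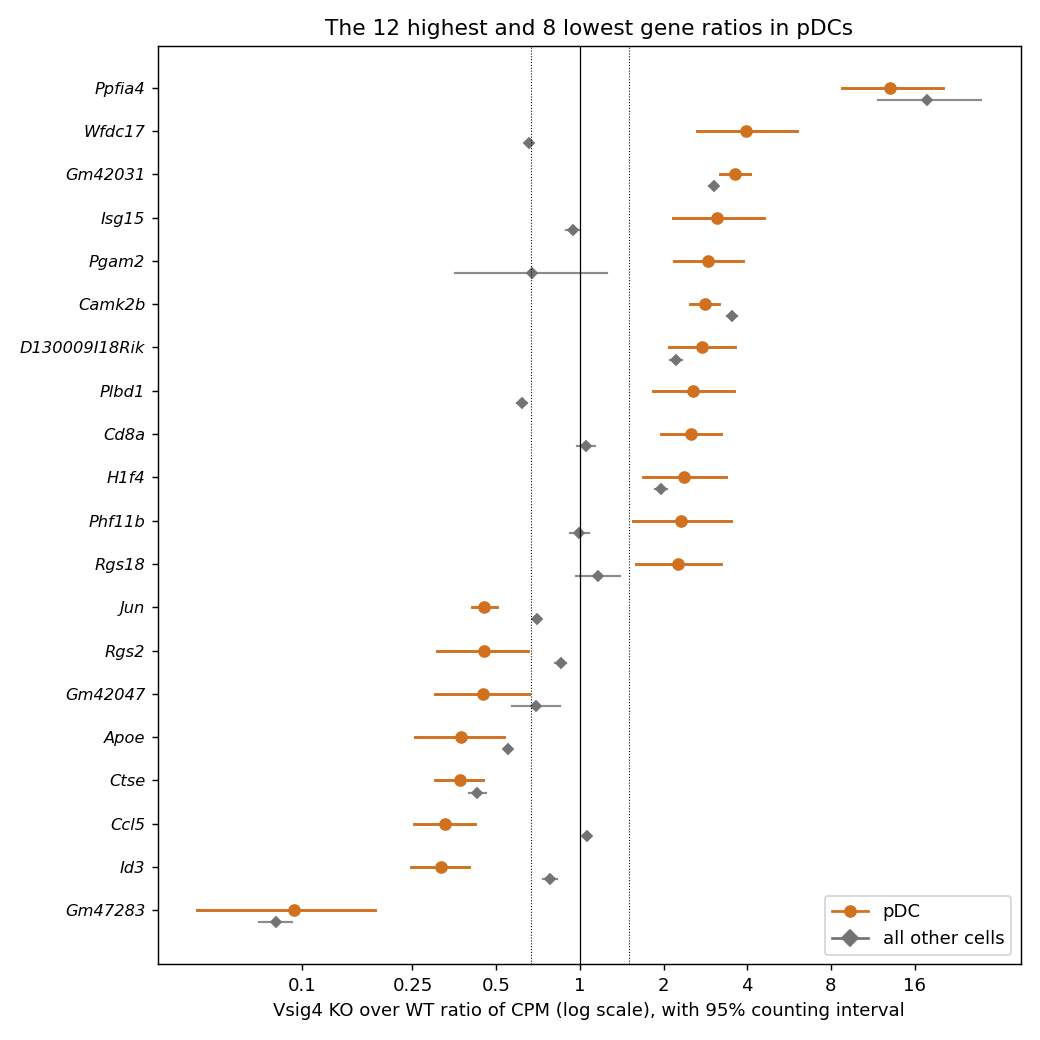
Ratio of Vsig4 KO over WT (log scale, with 95% counting intervals) for the 12 highest and the 8 lowest genes in pDCs (circles), with the same ratio in all other cells (diamonds); dotted lines mark 1.5-fold. Ppfia4, Camk2b, Gm42031, Gm47283 and Ctse lie together in both groups of cells, while Wfdc17, Isg15, Plbd1, Cd8a and Ccl5 lie apart. The pDC ratios of Wfdc17, Plbd1 and Ccl5 change side of 1 when some of the pDCs are left out.

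Markers of other cell types were found in pDCs of both libraries. In WT 45 (18.6%) and in Vsig4 KO 34 (22.5%) held at least 2 UMIs over 11 markers of macrophages, NK cells, B cells, cDC1, neutrophils and erythroid cells. Gzma, a granzyme of NK and T cells, had 146 UMIs in 8 WT pDCs, 134 of them in 4 cells with a median total of 10670.5 UMIs, and 12 UMIs in 8 Vsig4 KO pDCs. Nkg7 had 71 and 6 UMIs, and Lyz2, a lysozyme gene of myeloid cells, had 235 of 255 WT UMIs in 3 cells and 116 of 123 Vsig4 KO UMIs in 2. The summed macrophage markers were at 108 CPM in WT and 52.7 CPM in Vsig4 KO pDCs (1443 and 866 CPM in all other cells), with 5 of the 11 markers at 0, namely Clec4f, Cd5l, Marco, Timd4 and Vsig4. Without the cells that held other-lineage UMIs the Ccl5 ratio was 3.44, on the other side of 1. The hepatocyte markers were at 91.2 and 59.4 CPM with Alb at 0. The cDC2 markers were at 713 and 754 CPM, above the 498 and 329 CPM of all other cells. The monocyte markers, which hold the pDC gene Ly6c2, were at 3006 and 3302 CPM (5200 and 2999 CPM in all other cells). The NK and ILC1 markers, which hold Cd7, were at 1372 and 1234 CPM (1758 and 1947 CPM). The T cell markers, which hold Cd8b1, were at 273 and 421 CPM (1.54, 1.34 to 1.77) with Cd3d, Cd3e and Cd3g at 0 by the selection. The liver endothelium markers, which hold Cdh5, were at 295 and 392 CPM (1.33, 1.16 to 1.53), beside 107 and 112 CPM in all other cells. The part of such RNA in the other differences was not tested.

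pDCs varied most in a handful of genes. After thinning to 2000 UMIs, which kept 235 WT and 145 Vsig4 KO cells, the Fano factor (variance over mean, 1 for counting noise) had a median of 1.06 over 3247 genes. The 15 highest were Cdk8 (58.05), Cxcl2, Cmss1, Ccl4 (31.1), Lyz2, Hspa1b (12.8), Ccl5, Hspa1a, Lars2, Ccl3 (8.15), Cd74 (7.80), Gphn, Malat1, Camk2b and Gm19951. These values are over the cells of both libraries, and part of them differed between the libraries. Cxcl2 rested on 2 WT cells that held 435 of its 439 UMIs. For Cdk8 the Fano factor was 80.97 in WT and 11.85 in Vsig4 KO, with a highest thinned cell of 376 and 78 UMIs. For Camk2b it was 1.83 and 8.06, with thinned means of 0.502 and 1.77 UMIs. Ccl4 and Cd74 varied in each library on its own, with Fano factors of 26.95 and 34.9 for Ccl4 and 6.70 and 8.83 for Cd74. The MHC class II genes varied together: over the 235 WT and 145 Vsig4 KO cells Spearman's rho of Cd74 with H2-Aa was 0.80 and 0.82, and that of Hspa1b with Hspa1a was 0.69 and 0.73. All these cells share a library and a depth within each set, and the coefficients are given as a description.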

How the data were processed

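The authors deposited raw UMI counts per gene and cell barcode for 1 WT and 1 Vsig4 KO library, made with Cell Ranger 7.1.0 on mm10, per the submitters' processing notes. The WT matrix held 6929 barcodes and 28537154 UMIs and the Vsig4 KO matrix 5799 barcodes and 25119175 UMIs over 31253 genes, of which 57 and 53 barcodes failed the filters given above. UMIs were then summed over the pDCs of each library (Python 3.11.15, numpy 2.4.6, scipy 1.17.1, pandas 2.3.3, scanpy 1.11.5). A ratio is Vsig4 KO CPM over WT CPM, with an exact conditional binomial 95% interval; shares have Clopper-Pearson intervals, and a count of 0 allows up to 3 counts. Intervals cover counting error only.

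Comparison populations were gated on UMIs: B cells by at least 2 Cd79a and 1 Ms4a1 without Cd3, T cells by at least 2 Cd3d, Cd3e and Cd3g without Cd79a, cDC1 by at least 2 Xcr1 and Clec9a, and cDC2 by at least 2 Cd209a and Clec10a with Flt3 and no cDC1 marker. Shares of cells with a UMI were compared after thinning each cell to 1000 UMIs, which left out 1 WT and 3 Vsig4 KO pDCs. Scrublet at its own threshold marked 0 WT and 1 Vsig4 KO barcodes, so doublets were not removed; instead the highest-scoring 381 and 267 barcodes, 14 and 7 pDCs among them, were left out in an alternative. The calculation was tested on simulated counts.

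Genes named were those with the 12 highest and 12 lowest ratios (of genes that had 100 UMIs or more and were found in 10% of a library's pDCs), the 6 members with most UMIs and those past 1.5-fold of each list, the selecting genes, and the 15 most variable genes; other list members are named to describe a pathway, and a few genes that the rule names are not reported here. The members and lists were chosen with earlier results of these data known. In all, 14 alternatives were planned, and 3 were chosen after seeing the data: leaving out the 3 cells with the most UMIs of a gene, leaving out barcodes found in both libraries, and leaving out cells with fewer than 2 Ly6d UMIs. Gene positions are from GENCODE M21 and promoters from RefSeq.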

Additional observations from a re-analysis of the deposited data

How the results depend on the processing

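The ratio of the pDC shares lay between 0.710 and 0.775 under all 10 alternatives that could change it. The number of genes at least 1.5-fold higher went from 295 to 623 with a minimum of 20 UMIs and to 117 with 100 UMIs, and that of genes at least 1.5-fold lower from 284 to 714 and 113. The number of genes measured changes with that minimum too, so these counts are not shares and do not show a larger or smaller difference. Of 2548 recomputed gene ratios, 94 lay on the other side of 1 from the reported ratio, 11 of them for a gene past the 1.5-fold line, and these 11 follow. Without pDCs holding UMIs of other lineages Ccl5 was at 3.44 and Nkg7 at 1.01, and without the highest doublet scores Ccl5 was at 7.15 and Gzma at 2.25. Without the 3 cells with the most UMIs Klf4 was at 0.880. In pDCs with at least 2 Ly6d UMIs Atf3 was at 0.506, Ier3 at 0.723, Ifitm3 at 0.478, Klf4 at 0.765, Plbd1 at 0.964 and Wfdc17 at 0.723. The median of the proliferation list was 0.14 without other-lineage UMIs and 0.13 with 100 UMIs. The median of 8 genes shifted across the libraries, a list chosen from earlier results of these data, was -0.19, but 0.11 with 1 Siglech UMI and 0.0623 without the highest doublet scores. The cause was not tested. The interferon response median ranged from 0.19 to 0.41, that of MHC class II from 0.12 to 0.35 and that of heat-shock genes from -0.36 to -0.16. No paired analysis was possible because each genotype has 1 library.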
